A study of Mus musculus with 6 samples.

Results

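Described here are the 100 features most specific to extra-SCN neurons, the neurons of the dissected tissue that the authors' annotation places outside the suprachiasmatic nucleus (SCN). A feature is 1 row of the deposited count tables, which hold 32285 rows. UMIs (unique molecular identifiers, which count each captured RNA molecule once) were summed per row over the PND10 and PND30 nuclei of each annotated cell type and scaled to CPM, the counts a row would have if its total were 1e6. Of 4110 rows with at least 50 CPM in extra-SCN neurons, the 100 were taken with the largest ratio of CPM + 5 in these neurons over CPM + 5 in the highest of 8 other cell types. These values chose the members, so the ratios describe them and test nothing. No table used here pairs rows with gene names, so each member is called by its rank, from 1 for the largest ratio to 100 for the smallest, and neither a function nor a sequence can be given for it. For the same reason the annotation could not be checked against marker genes.

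The nuclei came from micro-dissected SCN of C57BL6/J wild-type mice, collected 3 to 5 hours after lights on. Each stage was a pool of 10 animals, 1 male and 1 female from each mother, with at least 5 mothers. Gestational day (GD) 17.5 and postnatal day (PND) 2 have 1 library each, and PND10 and PND30 have 2. The later libraries come from a repeated library preparation, and it is not stated whether the replicates were separate animals. Differences between them may therefore be technical, and a p-value measures only the spread between libraries. At GD17.5 and PND2 no test was possible, and each value is given with an exact 95% interval for counting error alone.

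The SCN is the central circadian clock of mammals and lies above the optic chiasm in the anterior hypothalamus. It borders on the preoptic area, the arcuate nucleus and the paraventricular nucleus, whose neurons control feeding, temperature and hormone release. Any dissection of so small a nucleus can take along such neighbours. Mature SCN neurons are classed by peptides such as vasopressin (Avp) and vasoactive intestinal peptide (Vip). Many neurons of the fetal and newborn SCN have not yet settled into these classes, though the annotation already has Vip+ nuclei at GD17.5 and PND2. The annotation keeps most neurons of GD17.5 and PND2 in a cluster of their own, called early SCN neurons here, and has no extra-SCN nuclei at these stages. The question was how the features that mark extra-SCN neurons later are spread over the early neurons, in all nuclei or in a subset.

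Extra-SCN neurons numbered 421 and 1243 nuclei in replicates 1 and 2 of PND10. At PND30 they numbered 108 and 377, and the 4 libraries held 1705629 to 8938677 summed UMIs of these neurons. Early SCN neurons numbered 4048 nuclei with 25975777 UMIs at GD17.5 and 3315 nuclei with 19391288 UMIs at PND2. Libraries shared at most 9 annotated barcodes in any pair. Of 22796 annotated nuclei, 6 could not be placed in a single library and were left out, 3 of them extra-SCN.

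The ratio that ranked the members ran from 9.68 to 1.66, with a median of 2.02. It was at least 2 for 56 members and at least 4 for 6. The member at rank 100 had a ratio of 1.663 (538 against 321 CPM), and the row just outside had 1.662 (358 against 213 CPM), so the list ends within a continuous range. A further 72 rows reached the ratio but not 50 CPM, the highest of them at 47.5 CPM. The members' own levels in extra-SCN neurons ran from 50.2 to 5721 CPM with a median of 116. The next highest cell type was microglia for 43 members, Vip+ neurons for 27, Avp+ neurons for 9, oligodendrocyte progenitors for 8, mature astrocytes for 5, Cck+ neurons for 5, Nms+ neurons for 2 and mature oligodendrocytes for 1. Microglia were few, with 75 nuclei at PND10 and 42 at PND30. When microglia were left out of the rule, a choice made after seeing the data, 79 of the 100 members stayed.

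As a group, the members were abundant in early SCN neurons. They held 2.77% of all UMIs there at GD17.5 and 3.14% at PND2. In extra-SCN neurons, where they had been chosen, their share was 3.69% and 3.59% for the libraries of PND10 and 3.47% and 3.01% for those of PND30. Both early values thus lay below both PND10 libraries, and the PND2 value lay within the range of the PND30 libraries. The neurons already annotated as Vip+ in the same early libraries held 1.01% at GD17.5 and 1.16% at PND2, near the 0.906% to 1.14% of Vip+ neurons in the later libraries. Immature astrocytes and ependymal cells held 0.618% and 0.845%, and oligodendrocyte progenitors 0.674% and 0.755%. The small cluster of unidentified neurons, which the rule did not use, held 3.31% at GD17.5 (10 nuclei), 3.23% at PND2 (26 nuclei) and 3.90% at PND10 (43 nuclei), about the level of extra-SCN neurons. At both early stages the members thus held a larger share of UMIs in neurons not assigned to a mature SCN class than in Vip+ neurons or glia. The members were picked for low values in Vip+ neurons, mature astrocytes and oligodendrocyte progenitors of PND10 and PND30. Part of this difference therefore follows from the choice. The 5 most abundant members held 38.6% of all member UMIs in extra-SCN neurons, and the same 5 held 37.9% in early neurons of GD17.5 and 39.2% of PND2.

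To see how these UMIs were spread over nuclei, every nucleus with at least 1500 UMIs was thinned at random to 1500 UMIs, and member UMIs were counted in each. This left out 77 shallow early nuclei at GD17.5, 37 at PND2 and 83 extra-SCN nuclei. The lowest early nucleus of GD17.5 held 2 member UMIs, and the lowest of PND2 held 13. That no early nucleus was at 0 separates nothing, since no nucleus of the Vip+, Avp+, Cck+ or Nms+ neurons was at 0 either, and the amounts are what differ. The median nucleus of GD17.5 held 36 member UMIs, with a 5th to 95th percentile range of 12 to 72. For PND2 the median was 44 and the range narrower, 26 to 71. Extra-SCN neurons had a median of 50 and a range of 29 to 79. By library their medians were 52 and 52 at PND10 and 48 and 41 at PND30. Vip+ neurons of the early libraries had medians of 14 (range 7 to 27) at GD17.5 and 16 (range 8 to 30) at PND2. Without thinning, members made up a median of 2.45% of a nucleus's UMIs in early neurons at GD17.5 and 2.94% at PND2, with 5th to 95th percentiles of 0.858% and 4.64%, and of 1.84% and 4.58%.

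The PND2 distribution was a single hump shifted slightly below that of extra-SCN neurons, whereas the GD17.5 distribution was wide and almost flat. At GD17.5, 9.77% of early nuclei held 15 to 19 member UMIs, 8.81% held 25 to 29 and 10.5% held 35 to 39. At PND2 the same intervals held 0.885%, 6.38% and 14.8%. The 10th percentile of extra-SCN neurons, 33 member UMIs, served as a limit. At or above it lay 2286 of 3971 early nuclei at GD17.5, 57.6% (interval 56.0% to 59.1%), and 2730 of 3278 at PND2, 83.3% (interval 82.0% to 84.5%). Among extra-SCN neurons 90.9% reached the limit, 94.0% and 94.7% by library at PND10 and 82.1% and 76.7% by library at PND30. Of Vip+ neurons, 2.12% reached it at GD17.5 and 3.27% at PND2, and of immature astrocytes and ependymal cells 0.844% and 1.98%. Since the distribution is continuous there, 407 early nuclei at GD17.5 and 401 at PND2 lay within 2 UMIs of the limit, and the share depends on where it is set. With the 25th percentile of extra-SCN neurons in its place, the shares were 41.2% and 60.9%. Without PND30 replicate 2, in the choice of members and in the reference nuclei, they were 49.4% and 77.4%.

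**Figure D1:**
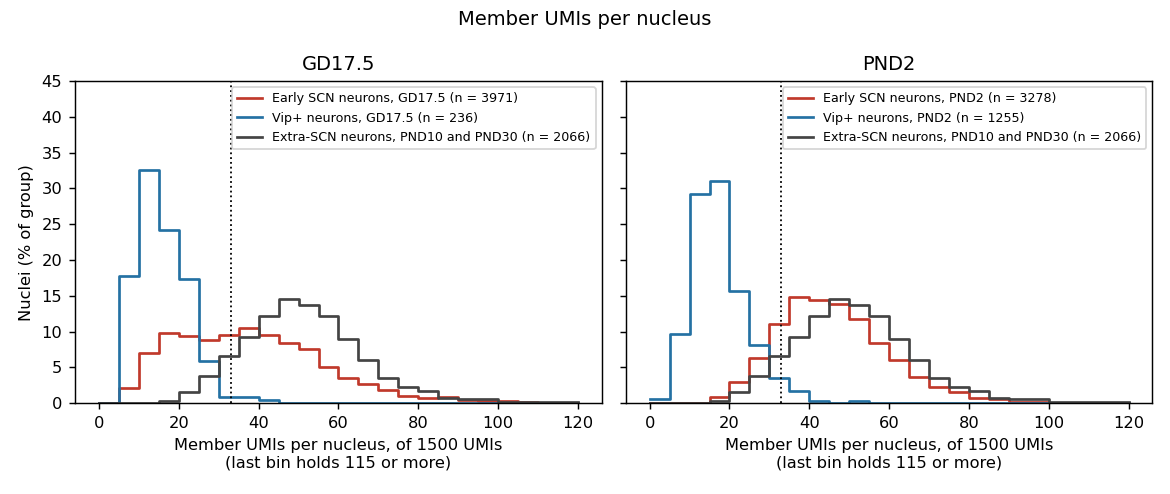
Distribution of member UMIs per nucleus after thinning to 1500 UMIs (x axis), as the percentage of nuclei of each group (y axis), for GD17.5 (left) and PND2 (right). Lines show early SCN neurons, Vip+ neurons of the same library and extra-SCN neurons of PND10 and PND30, and the dotted line marks the limit of 33 UMIs. Early neurons of GD17.5 spread from the range of Vip+ neurons to that of extra-SCN neurons (median 36), and those of PND2 lie mostly with extra-SCN neurons (median 44).

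At the low end, the early neurons overlapped the Vip+ neurons. At or below the 90th percentile of Vip+ neurons of the same library (23 member UMIs at GD17.5, 27 at PND2) lay 26.6% of early nuclei at GD17.5 and 7.14% at PND2. At or below the Vip+ median lay 9.22% and 0.214%. The variance over the mean of member UMIs per nucleus, which is about 1 when UMIs fall evenly on nuclei, was 9.59 at GD17.5 and 4.13 at PND2. In extra-SCN neurons it was higher, 11.6 at PND10 and 66.0 at PND30, and in Vip+ neurons of the early libraries it was 2.63 and 2.88. The extra-SCN values include a few extreme nuclei, the highest with 688 member UMIs at PND10 and 883 at PND30. Rank 3 alone had a variance over mean of 521 over extra-SCN nuclei. By 5th to 95th percentile, early nuclei of GD17.5 were spread wider (12 to 72) than extra-SCN nuclei of PND30 (24 to 71). Without the 5 most abundant members the early values were 4.18 and 2.40. To see whether the spread was shared among members, they were divided into those of odd and those of even rank. Over early nuclei the UMIs of both sets correlated at r = 0.39 at GD17.5 and r = 0.06 at PND2, and over extra-SCN neurons at r = -0.06. In Vip+ neurons r was 0.18 and 0.17 at these early stages and 0.23 and 0.30 at PND10 and PND30, and in Avp+ neurons 0.34 and 0.29 at PND10 and PND30. In Cck+ and Nms+ neurons of PND30 r was 0.15 and -0.02. The value of early neurons at GD17.5 was thus above each of these values for neurons of PND10 and PND30. That of PND2 lay between those of Nms+ and Cck+ neurons. It was not the highest of all groups: in microglia r was 0.95 at GD17.5 (14 nuclei), 0.63 at PND2 (32) and 0.78 at PND10 (64), but -0.11 at PND30 (28). In unidentified neurons it was 0.59 at GD17.5 (7 nuclei), and -0.07 at both PND2 and PND10. These correlations are over nuclei, of 1 library at each early stage, and nuclei are not replicates. Member UMIs at equal thinned depth still correlated with the nucleus's original UMI total, at r = 0.27 at GD17.5 and r = 0.19 at PND2. Early nuclei at or above the limit had had a median of 6180 UMIs before thinning at GD17.5, and those in the range of Vip+ neurons 4010. At PND2 these medians were 5307 and 4333. The part of this difference in the result was not tested.

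The nuclei poor in members held more UMIs of a list that is low in extra-SCN neurons. For this list, 100 rows were taken with at least 50 CPM and the largest ratio to extra-SCN neurons in the lowest of the Avp+, Vip+, Cck+ and Nms+ clusters of PND10 and PND30. No row was in both lists. The rows were ranked only against extra-SCN neurons, so the list does not mark SCN neurons: immature astrocytes and ependymal cells held medians of 100 and 95 of its UMIs at GD17.5 and PND2, and oligodendrocyte progenitors 80 and 79. At 1500 UMIs, early nuclei in the range of Vip+ neurons held a median of 86 UMIs of this comparison list at GD17.5 (5th to 95th percentile 58 to 120). Those between that range and the limit held 75 (42 to 107), and those at or above the limit 56 (34 to 90). At PND2 the medians were 77, 70 and 61. Extra-SCN neurons had a median of 51, and Vip+ neurons of the early libraries 139 and 155. The early nuclei with fewest members thus lay at the level of the glia and below that of Vip+ neurons. Over nuclei, the members and the comparison list correlated at r = -0.57 at GD17.5 and r = -0.31 at PND2, and in extra-SCN neurons at r = -0.18. Both lists were counted in the same 1500 UMIs, so that more of one leaves less room for the other. A list specific to Vip+ neurons, chosen by the members' own rule, ran the other way: its r with the members was 0.37 at GD17.5 and 0.12 at PND2. For a list of immature astrocytes and ependymal cells r was 0.03 and -0.08.

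Single members followed the sum to different degrees. Against their level in extra-SCN neurons, on the CPM + 5 scale, 72 members lay within 2-fold in early neurons at GD17.5 and 79 at PND2. At GD17.5, 25 were at least 2-fold lower, against 7.03% of the 4110 rows that could be chosen, and 3 at least 2-fold higher, against 2.26%. At PND2, 20 were at least 2-fold lower (3.24% of all rows) and 1 at least 2-fold higher (0.657%). The median ratio was 0.729 at GD17.5 and 0.830 at PND2, against 0.958 and 0.946 over all rows. Since members were picked for high values in extra-SCN neurons, some fall elsewhere follows from the choice. The rule did not use Vip+ neurons of the early libraries, but it picked members for low values in those of PND10 and PND30. Against Vip+ neurons of the same early library, 56 members were at least 2-fold higher in early neurons at GD17.5 (6.33% of all rows) and 60 at PND2 (5.52%). At PND2 1 member was at least 2-fold lower (2.07% of all rows), and none was at GD17.5 (3.24%). Higher to any extent were 90 and 99 members, and the median ratios were 2.29 and 2.43, against 0.997 and 1.02 over all rows. For the comparison list that is low in extra-SCN neurons the medians were 0.380 and 0.372. In early neurons 74 members at GD17.5 (18.5% of all rows) and 83 at PND2 (15.9%) also stood above the highest of the 8 other cell types of PND10 and PND30. The rule picked members for low values in these 8 cell types relative to extra-SCN neurons. Part of the excess over all rows therefore follows from the choice. The same holds for part of the excess over Vip+ neurons of the early libraries, since later Vip+ neurons are among the 8.

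**Figure D2:**
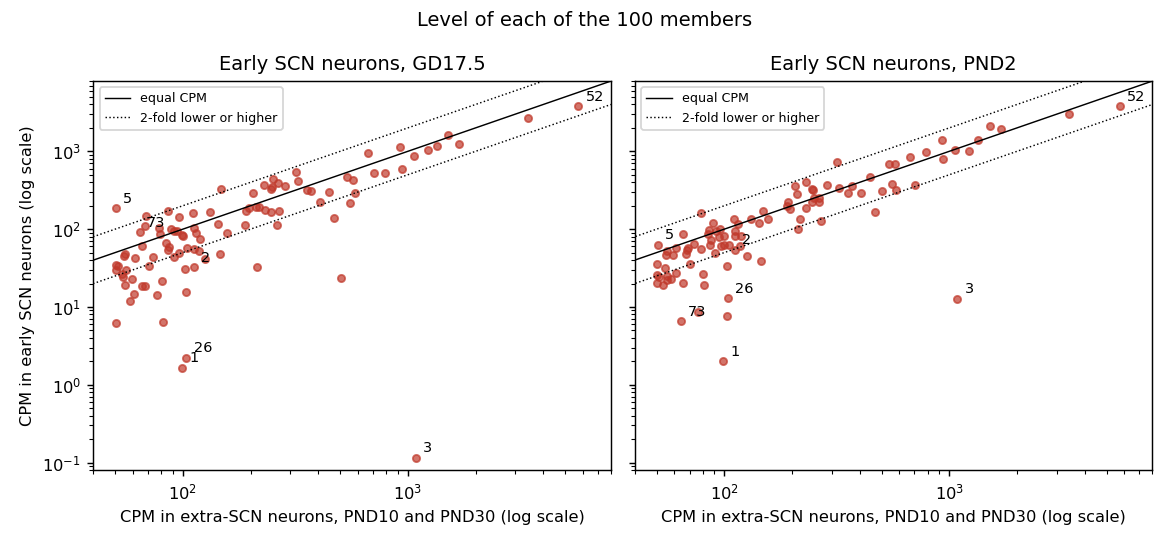
CPM of each of the 100 members in extra-SCN neurons of PND10 and PND30 (x axis, log scale) and in early SCN neurons (y axis, log scale) at GD17.5 (left) and PND2 (right). Points are members, some with their rank, the solid line marks equal CPM and the dotted lines 2-fold. Most members lie within 2-fold (72 at GD17.5, 79 at PND2), and ranks 1, 3 and 26 lie far below the line at both stages.

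The members with the highest levels in early neurons were found in most early nuclei, which by itself does not show an even spread. Rank 52 was highest, with 3813 CPM at GD17.5 (interval 3790 to 3837) and 3824 at PND2 (3796 to 3851), against 5721 in extra-SCN neurons. After thinning it was found in 56.1% and 76.6% of early nuclei and in 82.9% of extra-SCN nuclei. Its UMIs were unevenly spread: it was in fewer early nuclei than rank 97, which had a lower level. Rank 97 had 2653 and 3054 CPM in early neurons and was found in 82.0% and 95.2% of their nuclei, and in 63.1% and 72.4% of Vip+ nuclei of the same libraries, where its level was 837 and 1118 CPM. Rank 89 had 1605 and 2086 CPM in early neurons, above the 1515 CPM of extra-SCN neurons, and was found in 54.7% and 76.4% of early nuclei. Rank 100, the last member, was found in 47.3% and 62.8% of early nuclei, with 472 and 693 CPM.

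At the other end, 3 members were nearly missing from early neurons, among them the first and the third. Rank 1 had 1.66 CPM at GD17.5 (43 UMIs, interval 1.20 to 2.23) and 2.01 CPM at PND2 (39 UMIs, interval 1.43 to 2.75), against 98.8 CPM in extra-SCN neurons. Rank 3 had 0.115 CPM at GD17.5 (interval 0.0238 to 0.338) and 12.7 CPM at PND2 (11.2 to 14.4), against 1087 in extra-SCN neurons. Rank 26 had 2.23 and 12.9 CPM, against 104. In early nuclei thinned to 1500 UMIs, none of these 3 was found in more than 1.89%. Rank 2 was in between, with 32.3 CPM at GD17.5 (interval 30.2 to 34.6) and 54.5 CPM at PND2 (interval 51.2 to 57.8), against 112 in extra-SCN neurons and 6.29 and 6.71 in Vip+ neurons of the same early libraries. A large ratio did not go with a low early level throughout: ranks 5, 6 and 7, named after their values were seen, had 186, 171 and 1238 CPM in early neurons at GD17.5, against 50.4, 85.4 and 1693 in extra-SCN neurons.

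For each member, the share of nuclei with a UMI was compared with the share that would be seen if its UMIs fell evenly on the nuclei. Over all 100 members the median share of nuclei with a UMI was 10.8% at GD17.5, 11.5% at PND2 and 14.2% in extra-SCN neurons. Seen over even was taken for members with a mean of at least 0.05 UMI per thinned nucleus, which 76 reached in early neurons of GD17.5, 81 in those of PND2 and 100 in extra-SCN neurons. Its median was 0.846, 0.896 and 0.892. At GD17.5, 1 member was seen in under 0.5 of the even share, none at PND2 and 8 in extra-SCN neurons. In at least 50% of nuclei were 6 members at GD17.5, 11 at PND2 and 13 in extra-SCN neurons. A typical early nucleus held UMIs of 18 different members at GD17.5 and 20 at PND2, an extra-SCN nucleus 22, and a Vip+ nucleus of the early libraries 10 and 11. Most members were thus detected in under 50% of nuclei at this depth, in early as in extra-SCN neurons.

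**Figure D3:**
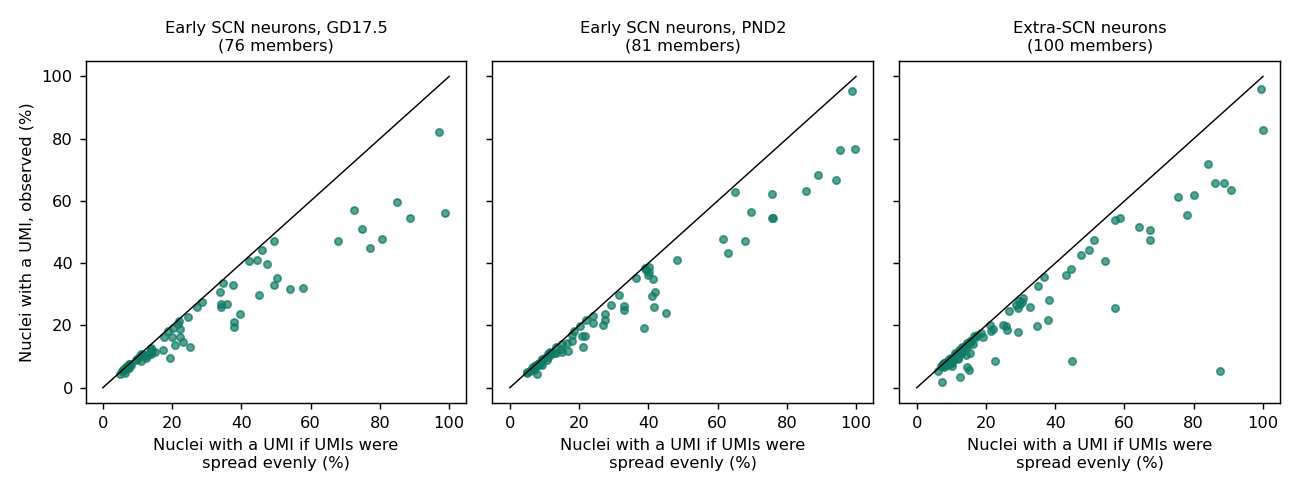
Percentage of nuclei with a UMI of each member (y axis) against the percentage if its UMIs were spread evenly (x axis), after thinning to 1500 UMIs, in early SCN neurons of GD17.5 and PND2 and in extra-SCN neurons. Points are members with a mean of at least 0.05 UMI per nucleus (76, 81 and 100), and the line marks an even spread. Medians of seen over even are 0.846, 0.896 and 0.892, and 2 members of extra-SCN neurons fall farthest below the line.

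Among members with at least 50 CPM in early neurons, ranks 73, 52 and 37 had the highest variance over mean per nucleus. By seen over even the lowest at GD17.5 was another, rank 32, named after its values were seen, found in 9.64% of nuclei against 19.3% at an even spread. Rank 73 had 91.5 CPM at GD17.5 and 6.55 at PND2. At GD17.5 it was found in 11.5% of nuclei against 15.2% at an even spread, with a variance over mean of 29.5. Rank 52 had a variance over mean of 17.1 at GD17.5 and 10.1 at PND2. Rank 37 went the opposite way to rank 73, from 23.8 CPM at GD17.5 to 311 at PND2, where it was found in 19.3% of nuclei against 38.7% at an even spread. Each of these changes between GD17.5 and PND2 compares 1 library with 1 library and was not tested.

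Most pairs of members were weakly correlated over nuclei, with a median r of 0.011 at GD17.5, 0.002 at PND2 and 0.003 in extra-SCN neurons. The highest r of a pair was 0.32, 0.35 and 0.68. Grouped by their correlation over extra-SCN nuclei, the members formed groups of 55, 33, 8 and 4. Within them the mean r over extra-SCN nuclei was 0.014, 0.025, 0.114 and 0.060, values on which the groups were formed. Over early nuclei of GD17.5 it was 0.012, 0.037, 0.019 and 0.010, and at PND2 0.004, 0.012, 0.048 and 0.008. The group of 8, which holds ranks 37 and 89, had a UMI in 65.4% of early nuclei at GD17.5, 86.7% at PND2 and 79.7% of extra-SCN nuclei. The group of 4, which holds rank 3, had one in 10.6%, 16.7% and 30.2%. Of 4950 pairs of members, 155 had r of at least 0.1 at GD17.5, 31 at PND2 and 105 in extra-SCN neurons, and 20 of the GD17.5 pairs and 16 of the PND2 pairs were among those 105. Values as weak as most of these in sparse counts are given as a description and are no finding.

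The members varied more between libraries of a stage than other rows did. On the CPM + 5 scale, 24 members differed at least 2-fold between the PND10 libraries, against 2.99% of the 4110 rows, and 9 at least 4-fold, against 0.462%. Of the 24, 9 were higher in replicate 1 and 15 in replicate 2. Between the PND30 libraries 4 members differed at least 2-fold (1.05% of all rows) and none at least 4-fold (0.17%). The rule works on sums over these libraries, so a row high in 1 of them could enter the list for that reason.

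Rank 1 had 4.41 CPM in replicate 1 of PND10 and 151 in replicate 2, and 99.3 and 100.3 in the PND30 libraries. Only the first of these libraries was low. Rank 2 had 390 CPM in PND10 replicate 1 and 2.57 in replicate 2, and 1.43 and 1.76 at PND30, so that its place in the list rests on 1 library. Rank 3 had 975 and 301 CPM at PND10 and 4341 and 1535 at PND30. It was found in 5.47% of extra-SCN nuclei where 87.5% would hold it at an even spread, so a small number of nuclei carried nearly all its UMIs. Rank 37 had 1750 and 23.3 CPM at PND10 and no UMI at PND30, where a count of 0 allows up to 1.43 and 1.76 CPM. Rank 73 had 192 and 17.0 CPM at PND10 and 6.21 and 7.62 at PND30. Ranks 2, 37 and 73 thus shared a high value in PND10 replicate 1 alone, as did rank 41, named after its values were seen, with 691 CPM there and 22.4 to 31.5 in the other 3 libraries. Replicate 1 had 421 extra-SCN nuclei with a median of 10830 UMIs and replicate 2 had 1243 with a median of 6289, and whether these differences bear on the members' levels was not tested.

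**Figure D4:**
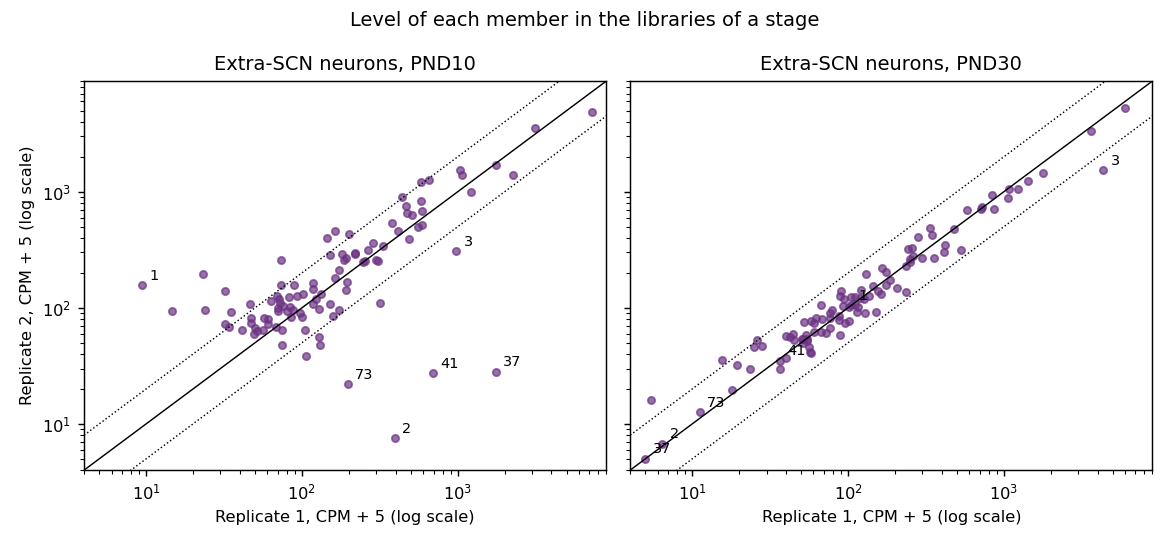
CPM + 5 of each of the 100 members in extra-SCN neurons, replicate 1 (x axis, log scale) against replicate 2 (y axis, log scale), at PND10 (left) and PND30 (right). Points are members, some with their rank, the solid line marks equal values and the dotted lines 2-fold. At PND10 24 members lie outside the dotted lines, with ranks 2, 37, 41 and 73 high in replicate 1 and rank 1 high in replicate 2, and at PND30 4 do.

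A list chosen without a library was then looked up in that library. Lists of 100 chosen without PND10 replicate 1, PND10 replicate 2, PND30 replicate 1 and PND30 replicate 2 shared 81, 69, 94 and 89 rows with the members. In the library left out, 90, 84, 88 and 85 of their rows were higher in extra-SCN neurons than in any other cell type with at least 20 nuclei there, against 23.7%, 17.0%, 33.4% and 17.7% of all rows that could be chosen. Most of the list was thus high in extra-SCN neurons of a library that had no part in the choice of rows. The authors' annotation of cell types covered all libraries, and the replicates are not known to be separate animals. The library left out is therefore not independent of the others. The median ratio there was 1.53, 1.55, 2.03 and 1.69. The other cell types with at least 20 nuclei numbered 6, 7, 4 and 8, so these values cannot be compared directly between libraries.

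Between PND10 and PND30, 0 of the 99 members tested changed within extra-SCN neurons in edgeR's quasi-likelihood test at an adjusted p of 0.05, and 1 of all 13834 rows did (0.00723%). At an unadjusted p under 0.05 there were 42 members, against 15.3% of all rows. Every member had at least 50 CPM in extra-SCN neurons, which only 4110 rows reached. Most rows behind the shares of this paragraph thus had lower counts than the members, and no share was taken over rows of like level. DESeq2 called 22 members, 2 higher and 20 lower at PND30, and 252 of 26707 rows (0.944%). The edgeR count changed when either PND10 library was left out: without PND10 replicate 1 it was 38 members (4 higher, 34 lower at PND30; 6.05% of all rows were called) and without PND10 replicate 2 it was 48 (17 higher, 31 lower; 8.08% of all rows), while without either PND30 library it stayed at 0. With no filter on low counts it was 43, with 4.12% of all rows called. In the full test 70 members had a log2 change below 0 and 29 above, with a median of -0.26, against -0.01 over all rows. The sums that chose the members came mostly from PND10, which had more extra-SCN nuclei, so a lower level at PND30 is partly built into the choice. Both PND30 libraries were below both PND10 libraries for 43 members (23.5% of all rows) and above them for 11 (23.8%), and for 46 they overlapped.

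The smallest p among the members belonged to rank 66, named after its values were seen. It had 259 and 308 CPM at PND10 and 87.9 and 97.9 at PND30. Both PND30 libraries lay far below both PND10 libraries. The log2 difference of PND30 from PND10 was -1.62 with a standard error of 0.19, and edgeR's adjusted p was 0.069. This p was 9.7e-11 and 2.6e-07 without PND10 replicate 1 and 2, and 0.57 and 0.33 without PND30 replicate 1 and 2, and DESeq2's adjusted p was 2.9e-07. In early neurons it had 343 CPM at GD17.5 and 319 at PND2, close to its PND10 values.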

How the data were processed

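Single-nuclei RNA sequencing was performed by the authors with 10x Genomics 3' chemistry (kit v3.1) on 6 libraries. Per the authors' processing notes, Cell Ranger 5.0.1 and Seurat 4 were used on mm10, and the authors deposited raw UMI counts per row and barcode, not normalized, with a table of the cluster of each nucleus that passed their limits. Doublets had been removed by the authors with scrublet. No cell filter was added here. Nuclei were placed in a library by barcode within their stage, which gave 22790 of 22796.

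Sums per cell type were scaled to CPM, and members were ranked with a pseudocount of 5 CPM. Nuclei were thinned without replacement to 1500 UMIs. Intervals are exact (Poisson or Clopper-Pearson, 95%) and cover counting error only. UMIs of extra-SCN neurons were summed per library and tested with edgeR 4.0.16 in R 4.3.3 (quasi-likelihood, TMM, filterByExpr, Benjamini-Hochberg over all rows). This test was tried on simulated data with 13498 rows. Of 100 rows changed by 1 on the log2 scale it recovered 25%, and of 98 changed by 2 it recovered 83.7%. It made 6 false calls. The simulated libraries varied by the fitted dispersion trend alone. These shares may therefore not hold for rows that vary more, such as the 24 members at least 2-fold apart between the PND10 libraries. DESeq2 1.42.0 was an alternative. Python 3.11.15, numpy 2.4.6, scipy 1.17.1 and matplotlib 3.10.9 were used for the rest.

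The rule for members described singly was ranks 1 to 3, the ranks on either side of the end of the list, the 3 highest and 3 lowest in early neurons, the 3 most unevenly spread with at least 50 CPM there, and the largest called changes between PND10 and PND30, of which edgeR gave none. The members, the comparison lists and the tests were chosen with earlier results of these data known. Alternatives changed the tool, filter, depth, score, limit and choice of members, or left out a library.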

Additional observations from a re-analysis of the deposited data

How the results depend on the processing

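The share of early neurons at or above the limit, 57.6% at GD17.5 and 83.3% at PND2, was 62.0% and 89.2% for the number of different members, 69.2% and 88.5% without the 5 most abundant members, 71.2% and 91.4% with 50 members, 55.3% and 81.8% with 200, and 60.0% and 85.7% with a pseudocount of 1 CPM. It was 64.4% and 91.3% with the 5th percentile as the limit and 41.2% and 60.9% with the 25th. At PND2 it was 85.9% when thinned to 1000 UMIs and 81.6% at 3000. With 1 library left out in turn it was 49.4% to 61.8% at GD17.5 and 75.05% to 88.3% at PND2. Values within the counting interval came from a pseudocount of 20 CPM, a minimum of 20 CPM, equal weight per library and the rule without microglia at both stages, and at GD17.5 also from both other depths. In each alternative the PND2 share was above the GD17.5 share. The correlation of members of odd with members of even rank ran from 0.265 to 0.455 at GD17.5 and from 0.0527 to 0.14 at PND2. The variance over mean per nucleus ran from 4.18 (without the 5 most abundant members) to 17.1 (3000 UMIs) and from 2.40 to 7.21.

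Members called by edgeR between PND10 and PND30, 0 in the full test, remained 0 with RLE size factors, with equal weight per library and without microglia in the rule. The count was 43 with no filter on low counts (1100 of 26707 rows in all), 22 with DESeq2 (252 of 26707) and 0 to 48 with 1 library left out (0 to 1062 rows), where the lone library of a stage is assumed to vary like the other stage. With the replicate block, the count was 0. The replicate numbers are not known to pair the libraries, and deviations of same-numbered libraries correlated at -0.02 over 13834 rows. The causes of these differences were not tested.

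The depth limits what can be said of 1 nucleus: at 1500 UMIs the median of all 100 members was seen in 10.8% of early nuclei at GD17.5 and 11.5% at PND2. GD17.5 and PND2 have 1 library each, so differences between them cannot be told apart from differences between libraries. Rows without names leave the kind of neuron unknown.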

Other observations

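The Avp+ neurons of PND10 and PND30 held a tail of nuclei rich in members. Their median was 14 member UMIs per 1500 at PND10 and 13 at PND30, close to Vip+ neurons, but 5.63% of 1829 nuclei at PND10 and 7.28% of 1510 at PND30 reached 33 UMIs. Of Vip+ neurons 2.99% and 0.558% did, of Nms+ neurons of PND30 0.169%, and of Cck+ neurons of PND30 0 of 1669. These nuclei took part in the rule as a comparison group, and the shares are descriptions. Microglia had a low median, 8 member UMIs at PND2 and 6 at PND10, with a separate high tail: 5 of 32 nuclei at PND2 and 10 of 64 at PND10 reached 33 UMIs, and 0 of 28 at PND30. Beside these shares stands the fact that microglia were the next highest cell type for 43 of the 100 members.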
